A study of Homo sapiens with 6 samples.

Results

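The genes described here are 209 antisense long non-coding RNAs (lncRNAs) of A549 cells and the genes they are named after. They were chosen from the 30493 rows of the deposited count table by 3 criteria: a gene type of lncRNA, a symbol ending in -AS and a number, and a mean raw count of 50 or more over the 6 libraries. Of 8582 lncRNA rows, 1008 carried such a symbol and 211 of those reached the minimum, before EPB41L4A-AS1 and OIP5-AS1 were left out. The mean count over both groups chose the members. In 17 of them 1 group alone was below 50, so that the level of the other group brought them in: SOX21-AS1 rose, HIF1A-AS1, LIMD1-AS1, SCOC-AS1, MRPS9-AS1 and KDM4A-AS1 fell, and 11 did not pass the test described below. KDM4A-AS1 was named after its values were seen. The members have 208 different symbols, because DNAJC9-AS1 stands for a pair of gene identifiers. For 205 of them the gene named before -AS was in the table, which gave 202 different partners, 201 of them protein coding. The remaining 4, MYL12-AS1 among them, were read without a partner.

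A549 is an established human lung adenocarcinoma cell line. The study lowered STAU1, a protein that binds double-stranded RNA, and compared the transcriptome with that of control cells. All 6 libraries are A549, with 3 controls (NC, whose genotype label reads control plasmid) and 3 libraries of STAU1 knockdown (si_STAU1). The labels give no time after knockdown, do not say which reagent carried it or whether the cells came from a clone, and do not say whether replicates are separate cultures, so that p-values measure the spread between these libraries.

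An antisense lncRNA is transcribed from the strand opposite to its partner. Head-to-head pairs start close to each other and run apart, tail-to-tail pairs converge and meet at their ends, and others lie inside the partner gene, in exons or introns, or around it. A few lie farther off. Base pairing between an antisense RNA and a transcript of its partner can form double-stranded RNA, the kind of structure that STAU1 binds. Short divergent transcripts that start beside a promoter are degraded in the nucleus by the RNA exosome and its adaptor complexes, while polyadenylated and spliced antisense lncRNAs can be stable and reach high levels.

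The libraries held 30354219 to 35431441 counts, and 17089 genes passed the filter on low counts, all 209 members among them. STAU1 stood at 120, 125 and 117 CPM (counts scaled by library size and TMM factors) in the controls and at 16, 15.7 and 14.6 after knockdown. Its log2 fold change was -2.97 ± 0.04 (SE), 7.83-fold lower, with an adjusted p of 8.13e-45 by edgeR's quasi-likelihood test. A list of 10 marker genes chosen for A549 holds keratins, EPCAM, redox and aldehyde enzymes, SFTPB and NKX2-1, and not all of them were high here. Their summed level was 27700 to 28300 CPM in the controls and 26100 to 26300 CPM after knockdown. The 6 stromal markers summed to 7.16 to 7.66 CPM against 11.8 to 13.8 CPM, and the 4 listed of 6 blood markers to 13 to 14 against 17.0 to 19.3 CPM. EPCAM and ALDH1A1 rose (0.22 and 0.05), while KRT7, KRT8, KRT18, AKR1C1, AKR1B10, NQO1 and SFTPB fell. NKX2-1 had only 2 to 9 raw reads a library. The surfactant gene SFTPB had 103, 56 and 50 raw reads in the controls and 0 in each knockdown library. Fewer cells of a type and less RNA per cell cannot be told apart in bulk libraries, and the part of these shifts in the results was not tested.

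The counting of reads by strand touches antisense genes more than others, so it was checked in the files. The library kit is directional, but the strand setting of the counting is not stated in any source used. A set of 116 listed genes had at least 90% of their exonic bases inside exons of a gene on the opposite strand that had over 300 reads per kb. Their read density was a median 13.7% of that of the host (quartiles 3.41% and 22.5%). Every deposited gene had at least 1 read, so genes without reads could not enter this set, and the median may be too high. For 13 genes inside same-strand exons the median was 1.77% (quartiles 0.164% and 44.8%). In 86 of them with a mean count of 10 or more, the summed counts were 4.17%, 4.1% and 3.77% of the hosts' in controls 1 to 3, and 3.72%, 3.32% and 2.21% in knockdown libraries 1 to 3. Knockdown 3 thus stood below the other libraries, and it was the lowest of the knockdown libraries in 80 of the 86 genes. Reads of an antisense lncRNA and of a partner exon that covers it cannot be told apart from these tables alone.

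Per length, most antisense lncRNAs were less abundant than their partners. The median member level was 0.812 FPKM, with a range of 0.0583 to 59.5, against a median of 2.98 FPKM for the partners. In 203 pairs with both values, the median ratio of antisense to partner was 0.306. The antisense lncRNA was above its partner in 67 pairs and under 10% of it in 59 pairs. Mean raw counts ran from 50 to 7523 with a median of 119.8, 86 members had fewer than 100, and 6 had 1000 or more. By GENCODE 29 the members had a median of 5 exons and 3065 exonic bases. The body of 183 members overlapped that of the partner, and exons overlapped exons in 161.

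The 5 members with the highest level per length were IGFL2-AS1, PITPNA-AS1, MIF-AS1, FGD5-AS1 and AGAP2-AS1. IGFL2-AS1 (chr19:46189166-46203083, minus strand) reached 59.5 FPKM, while IGFL2, which encodes an insulin growth factor-like protein, had 5 to 19 raw reads a library. IGFL2-AS1 was at 252, 246 and 239.6 CPM in the controls and 225, 214 and 229.5 CPM after knockdown. The groups did not overlap, and IGFL2-AS1 fell slightly, with a log2 fold change of -0.14, SE 0.02, adjusted p = 5.88e-06. With total counts the value was -0.06 (adjusted p = 0.032), and with log2(FPKM + 1) it was -0.03 and did not pass (adjusted p = 0.581). FGD5-AS1 (chr3:14920347-14948424, minus strand) had 19.4 FPKM, while FGD5 had 0 to 3 raw reads a library. FGD5-AS1 was at 116, 117 and 112 CPM in the controls and 118, 124 and 119 CPM after knockdown. It rose by a small amount (log2 fold change 0.07, SE 0.03, adjusted p = 0.0394), a call that was lost without any of 4 libraries in turn: adjusted p was 0.0586 without control 1, 0.216 without control 3, 0.181 without knockdown 2 and 0.0516 without knockdown 3. PITPNA-AS1 (23.9 FPKM) fell, from 17.1, 17 and 16.1 CPM in the controls to 14.7, 12.8 and 14.1 CPM after knockdown (log2 fold change -0.27, SE 0.06, adjusted p = 0.00051). Its partner PITPNA, a phosphatidylinositol transfer protein, had a log2 fold change of 0.04, SE 0.03, adjusted p = 0.295. With total counts PITPNA passed as higher (0.12, adjusted p = 0.00147).

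MIF-AS1 and AGAP2-AS1 did not pass the test. MIF-AS1 (21.4 FPKM) runs tail to tail with MIF, the gene of a secreted inflammatory cytokine, and their exons share 687 bases, 61.9% of those of MIF. It was at 42.5, 43.5 and 40.4 CPM in the controls and 38.9, 31.4 and 27.5 CPM after knockdown, with knockdown 3 lowest (log2 fold change -0.38, SE 0.14, adjusted p = 0.108). Without knockdown 3 the value was -0.26 with an adjusted p of 0.00233, and without knockdown 1 it was -0.52 with an adjusted p of 6.74e-12. DESeq2 called MIF-AS1 lower (adjusted p = 0.0364), and so did voom (0.000136). MIF itself fell (log2 fold change -0.15, SE 0.04, adjusted p = 0.00242), a call lost with total counts (adjusted p = 0.148). AGAP2-AS1, at 9.25 FPKM, lay 16.3 ± 1.17 CPM (SD, n = 3) in controls and 16.4 ± 0.593 CPM after knockdown.

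After STAU1 knockdown, 25 of the 209 antisense lncRNAs rose and 23 fell, and 161 did not pass the test. GAS6-AS1 rose 2.8-fold, and the other changes stayed within 2-fold, with a median of 1.33-fold among the 48 called. Over all 17089 genes tested, 44.2% were called, 22.2% higher and 22% lower, against 23% of the members, 12% higher and 11% lower. The median log2 fold change was 0.01 for the members and 0.00 for all genes, and 107 members had a value above 0 and 102 below. The libraries of the 2 groups did not overlap in 76 members, 36.4%, against 51.4% of all genes tested. Among the 13499 genes that also had a mean count of 50 or more, 52.5% were called and 59.1% did not overlap. An unadjusted p below 0.05 was found in 59 members.

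The share called was larger at higher read counts. Among 86 members with a mean count of 50 to under 100, KIAA2012-AS1 and SOX21-AS1 rose and 10 fell, 14% in all. SOX21-AS1 and 5 of the 10 that fell reached 50 only through the group where they were higher, so this share is partly fixed by the choice of members. Of 89 members with 100 to under 300 counts, 15 rose and 8 fell (25.8%), and of 34 with 300 or more, 8 rose and 5 fell (38.2%). The 809 other lncRNA rows with 50 or more counts had a median count of 125, close to the members' 120, and 32.1% of them were called (138 higher, 122 lower). The 52 rows whose symbols end in -DT, which are divergent transcripts, had 9 higher and 3 lower. These shares were not tested against each other. The balance of directions depended on the scaling. With total counts and no TMM factors 39 members were called higher and 14 lower, a share higher of 73.6% in place of 52.1%. With log2(FPKM + 1) 39 were higher and 12 lower, a share higher of 76.5%. All genes moved as well: of those called, 50.3% were higher with TMM factors, 69.5% with total counts and 77.3% with log2(FPKM + 1).

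The largest rise was that of GAS6-AS1 (chr13:113815630-113845744, plus strand), which converges on GAS6, the gene of a secreted ligand of the AXL family of receptor tyrosine kinases. GAS6-AS1 was at 2.29, 1.96 and 2.04 CPM in the controls and 5.6, 5.86 and 6.34 CPM after knockdown. Every knockdown library lay above every control, and it rose, with a log2 fold change of 1.5, SE 0.13, adjusted p = 6.66e-14. GAS6 was at 5.25, 5.59 and 5.15 CPM in the controls and 6.49, 6.14 and 6.14 CPM after knockdown, also without overlap, but GAS6 did not pass the test (log2 fold change 0.23, SE 0.10, adjusted p = 0.0576). GAS6 passed as higher with total counts (0.31, adjusted p = 0.00976), log2(FPKM + 1) (adjusted p = 0.0134) and the filter of 1 CPM (adjusted p = 0.0454). The antisense lncRNA thus went from below its partner in raw reads to nearly level with it, with log2 ratios of -1.20, -1.51 and -1.34 in the controls and -0.21, -0.07 and 0.04 after knockdown.

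KIAA2012-AS1 was next, from 2.19, 1.54 and 1.57 CPM in the controls to 3.23, 3.32 and 3.21 CPM after knockdown (log2 fold change 0.88, SE 0.16, adjusted p = 1.43e-05). KIAA2012-AS1 (chr2:202113626-202117058, minus strand) lies within KIAA2012, which had 3 to 10 raw reads a library and was not tested. POC1B-AS1, which starts head to head with the centriole protein gene POC1B, had 3.16, 2.58 and 2.42 CPM in the controls and 4.48, 4.39 and 4.46 CPM after knockdown. The controls spread more widely than the knockdown libraries, and the groups did not overlap (log2 fold change 0.71, SE 0.13, adjusted p = 1.41e-05). NINJ2-AS1, inside the gene of the adhesion protein ninjurin-2, had 2.84, 3.73 and 2.7 CPM in the controls and 4.09, 4.92 and 4.84 CPM after knockdown (log2 fold change 0.58, SE 0.13, adjusted p = 0.000235). NINJ2 was low, at 16 to 38 raw reads, and did not pass (log2 fold change 0.13, SE 0.27, adjusted p = 0.723). PRKAG2-AS1 had 3.51, 3.14 and 3.08 CPM in the controls and 4.51, 4.54 and 5.15 CPM after knockdown (log2 fold change 0.55, SE 0.12, adjusted p = 0.000222). Its partner PRKAG2 encodes a regulatory subunit of the AMP-activated kinase. Of the other 20 that rose, FGD5-AS1 is given above, SOX21-AS1, COX10-AS1, GABPB1-AS1, PSMA3-AS1 and OTUD6B-AS1 are given with their partners, and the remaining values were 0.19 to 0.56.

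Among the falls, HIF1A-AS1 (chr14:61681041-61695823, minus strand) was largest. It starts head to head with HIF1A, the oxygen-regulated transcription factor. HIF1A-AS1 was at 2.61, 2.91 and 2.32 CPM in the controls and 1.34, 1.47 and 1.33 CPM after knockdown. The groups did not overlap, with a log2 fold change of -0.92, SE 0.18, adjusted p = 2.53e-05. SCOC-AS1, within the gene of a coiled-coil protein of the Golgi, had 2.32, 2.39 and 2.17 CPM in the controls and 1.31, 1.38 and 1.13 CPM after knockdown (log2 fold change -0.85, SE 0.18, adjusted p = 0.000155). LIMD1-AS1 had 2.35, 2.78 and 2.17 CPM in the controls and 1.53, 1.69 and 1.05 CPM after knockdown (log2 fold change -0.78, SE 0.19, adjusted p = 0.000567), while LIMD1, a LIM-domain scaffold protein, had a log2 fold change of 0.08, SE 0.04, adjusted p = 0.0534. Without knockdown 2, LIMD1 passed as higher, at 0.09 with an adjusted p of 0.0461, as it did with total counts (0.16, adjusted p = 0.000157). Exons of LIMD1 lie over 62.3% of the exonic bases of LIMD1-AS1. PRR34-AS1, with more reads than these, had 11.4, 11.8 and 12.9 CPM in the controls and 8.41, 7.71 and 8.16 CPM after knockdown (log2 fold change -0.57, SE 0.08, adjusted p = 2.65e-08), beside a partner of 5 to 13 raw reads.

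In PRC1-AS1, MRPS9-AS1, MYL12-AS1 and IER3-AS1, knockdown 3 lay well below the other knockdown libraries. PRC1-AS1, inside the gene of a microtubule-bundling protein of cytokinesis, had 5.06, 5 and 4.43 CPM in the controls and 3.87, 3.32 and 1.8 CPM after knockdown (log2 fold change -0.71, SE 0.23, adjusted p = 0.0328). Its call was lost without control 1 (adjusted p = 0.138), control 2 (0.137), control 3 (0.0742) or knockdown 2 (0.0777). Without knockdown 3 its value was -0.43 with an adjusted p of 0.00811. MRPS9-AS1, beside a mitochondrial ribosomal protein gene, had 2.16, 2.06 and 1.63 CPM in the controls and 1.41, 1.63 and 0.803 CPM after knockdown (log2 fold change -0.62, SE 0.21, adjusted p = 0.0144). It was lost without control 1 (0.0804), control 2 (0.0601) or knockdown 3, where the value was -0.36 with an adjusted p of 0.168. MYL12-AS1 had 4.35, 4.61 and 3.39 CPM in the controls and 3.36, 3.04 and 1.72 CPM after knockdown (log2 fold change -0.62, SE 0.20, adjusted p = 0.0249), and was lost without control 1 (0.115) or control 2 (0.113). Without knockdown 3 it was -0.36 with an adjusted p of 0.0411. IER3-AS1 kept its call without each library in turn, from 3.9, 3.4 and 3.33 CPM in the controls to 2.81, 2.47 and 1.72 CPM after knockdown (log2 fold change -0.61, SE 0.16, adjusted p = 0.00102). Without knockdown 3 IER3-AS1 was at -0.42 with an adjusted p of 0.0234. With log2(FPKM + 1) the adjusted p was 0.109 for MRPS9-AS1, 0.145 for MYL12-AS1 and 0.0515 for IER3-AS1. ATP2A1-AS1, H1-10-AS1 and ZNF337-AS1, which also fell, are given with their partners, and the remaining 10 had log2 fold changes of -0.53 to -0.28. Knockdown 3 was the lowest knockdown library in 94 of all 209 members, in 16 of the 23 that fell and in 6 of the 25 that rose. A low value in knockdown 3 itself favours a call of lower over higher, so this contrast is partly fixed by the calls.

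**Figure D1:**
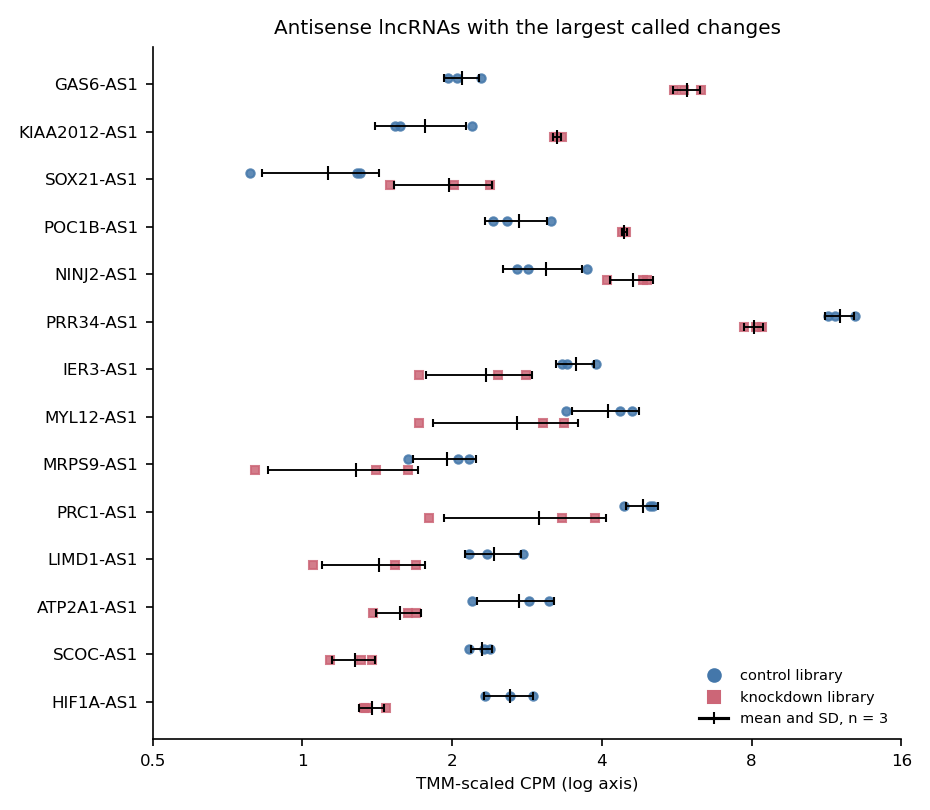
TMM-scaled CPM on a log axis for the 14 antisense lncRNAs with the largest called changes, with 1 point per library and the mean and SD of each group (n = 3). GAS6-AS1 shows the widest gap, and in PRC1-AS1, MRPS9-AS1, MYL12-AS1 and IER3-AS1 a single knockdown library lies well below the other knockdown points.

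Of 175 partners tested, 48 rose and 49 fell (55.4%), at a median mean count of 934 and a median log2 fold change of 0.01. For comparison, 52.5% of all genes with 50 or more counts were called. In 177 pairs both genes were tested. Neither was called in 65 pairs, the partner alone in 74 (37 higher, 37 lower), and the antisense lncRNA alone in 13 (6 higher, 7 lower).

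Both genes of a pair were called in 25 pairs. In 18 of these they moved in the same direction, 8 up and 10 down, and in 7 in opposite directions. Over the 177 pairs the log2 fold changes of antisense and partner had a Pearson correlation of 0.287 and a Spearman correlation of 0.249, given as a description, since all pairs share the 6 libraries and overlapping exons may share reads. The signs matched in 95 pairs, 53.7%. The correlation was 0.447 (Spearman 0.413) in the 83 head-to-head pairs with overlapping bodies and 0.178 (Spearman 0.191) in the 40 tail-to-tail pairs. In the 19 head-to-head pairs whose bodies do not overlap it was 0.295 (Spearman -0.049), and the signs matched in 36.8%.

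**Figure D2:**
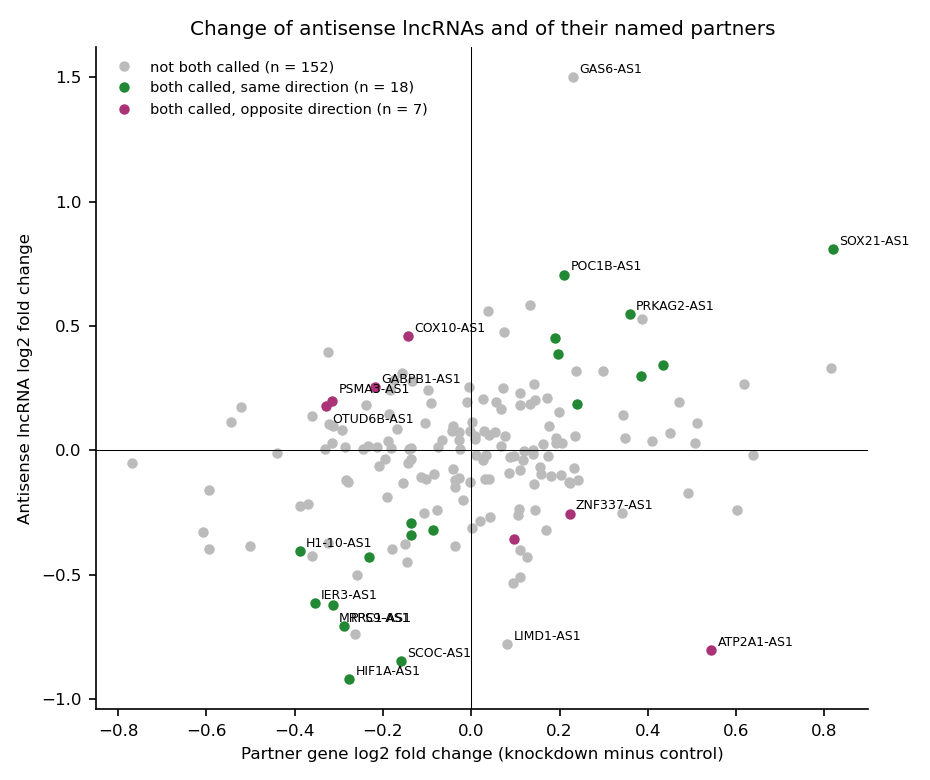
Log2 fold change of each antisense lncRNA against that of its named partner, knockdown minus control, for the 177 pairs with both genes tested (1 point per pair). The 18 pairs called in the same direction and the 7 called in opposite directions are coloured. SOX21-AS1 lies at the upper right, where both genes are higher, and ATP2A1-AS1 at the lower right, where only the partner is higher.

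In the 6 same-direction pairs with the smallest p-values, the partner had more reads and the antisense lncRNA the numerically larger log2 change. HIF1A fell with HIF1A-AS1, from 595, 598 and 633 CPM in the controls to 491, 517 and 499.7 CPM after knockdown (log2 fold change -0.28, SE 0.02, adjusted p = 2.40e-13). SCOC fell by 0.16 on the log2 scale (adjusted p = 9.46e-05) where SCOC-AS1 fell by 0.85. SCOC did not pass with log2(FPKM + 1), at -0.05 with an adjusted p of 0.323. IER3, an immediate early gene, had 59, 57.1 and 61.8 CPM in the controls and 45.5, 47.6 and 46 CPM after knockdown (log2 fold change -0.35, SE 0.04, adjusted p = 5.36e-11). Exons of IER3 lie over 68.1% of the exonic bases of IER3-AS1 in GENCODE 29, the highest share among these 6 pairs. Reads of these bases cannot be assigned to 1 gene of the pair. H1-10-AS1, which shares a start region with the linker histone gene H1-10, had 8.67, 9.31 and 8.1 CPM in the controls and 7.2, 6.86 and 5.7 CPM after knockdown (log2 fold change -0.41, SE 0.09, adjusted p = 0.000322). H1-10 fell by a like amount (log2 fold change -0.39, SE 0.03, adjusted p = 3.32e-16), from 128, 133 and 127 CPM in the controls to 96.5, 97.7 and 102 CPM after knockdown.

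Pairs that rose together included POC1B-AS1 with POC1B and PRKAG2-AS1 with PRKAG2. POC1B had 43.5, 44 and 42.9 CPM in the controls and 48.8, 50.2 and 51.7 CPM after knockdown (log2 fold change 0.21, SE 0.04, adjusted p = 1.03e-05), and PRKAG2 had 28.9, 27.3 and 29.2 CPM in the controls and 37, 36.7 and 35.9 CPM after knockdown (log2 fold change 0.36, SE 0.04, adjusted p = 3.23e-09). PRC1, which fell with PRC1-AS1, had a log2 fold change of -0.29, SE 0.03, adjusted p = 1.11e-12, and MRPS9 a log2 fold change of -0.31, SE 0.04, adjusted p = 2.43e-08. The ratio of antisense to partner reads within a library separated the groups in POC1B-AS1, HIF1A-AS1 and SCOC-AS1 and, narrowly, in PRKAG2-AS1, and overlapped in IER3-AS1 and H1-10-AS1.

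In 4 of the 7 opposite pairs the antisense lncRNA rose while the partner fell. PSMA3-AS1 (chr14:58265365-58298134, minus strand) converges on the proteasome subunit gene PSMA3. PSMA3-AS1 had 38.2, 40.9 and 41.8 CPM in the controls and 46.7, 48.1 and 43.9 CPM after knockdown (log2 fold change 0.20, SE 0.04, adjusted p = 0.000121). PSMA3 had 177, 179 and 177 CPM in the controls and 145, 142 and 141 CPM after knockdown (log2 fold change -0.31, SE 0.02, adjusted p = 1.69e-15). Exons of the pair share 0 bases in GENCODE 29, and their log2 ratio was -2.22, -2.13 and -2.08 in the controls and -1.63, -1.57 and -1.69 after knockdown. GABPB1-AS1 had 24.9, 25.2 and 26.1 CPM in the controls and 32.1, 27.3 and 31.5 CPM after knockdown (log2 fold change 0.25, SE 0.05, adjusted p = 7.32e-05). Its partner GABPB1, a subunit of the ETS-family factor GABP, went the other way (log2 fold change -0.22, SE 0.06, adjusted p = 0.00116), from 24.2, 22.4 and 22.9 CPM in the controls to 18.3, 20.9 and 20.5 CPM after knockdown. GABPB1 did not pass with log2(FPKM + 1) (adjusted p = 0.246).

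COX10-AS1 and OTUD6B-AS1 start 1 and 7 bases from the start of their partner in GENCODE 29. COX10-AS1 had 3.26, 4.44 and 4.05 CPM in the controls and 5.92, 5.2 and 5.06 CPM after knockdown (log2 fold change 0.46, SE 0.12, adjusted p = 0.00133). COX10, an enzyme of heme A synthesis for cytochrome c oxidase, had 20.7, 20.8 and 20 CPM in the controls and 18.3, 18.2 and 19 CPM after knockdown (log2 fold change -0.14, SE 0.06, adjusted p = 0.0305). The call of COX10 was lost without control 1 (adjusted p = 0.0846), control 2 (0.0826), knockdown 1 (0.0892) or knockdown 2 (0.0833). COX10 also did not pass with DESeq2 (adjusted p = 0.112), with no filter on low counts (0.0648) or with total counts (0.339). OTUD6B-AS1 had 21.5, 20.6 and 20.9 CPM in the controls and 23.2, 22.6 and 25.4 CPM after knockdown (log2 fold change 0.18, SE 0.05, adjusted p = 0.00551), with an adjusted p of 0.0946 without knockdown 3, its highest library. OTUD6B, a deubiquitinase, fell from 14.3, 15.7 and 16.8 CPM in the controls to 11.6, 13.6 and 12.1 CPM after knockdown (log2 fold change -0.33, SE 0.07, adjusted p = 0.000106). With log2(FPKM + 1) the adjusted p was 0.0573 for OTUD6B and 0.649 for COX10.

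In the other three the antisense lncRNA fell while the partner rose. ATP2A1-AS1 (chr16:28878957-28879920, minus strand) lies inside ATP2A1, the gene of a calcium pump of muscle sarcoplasmic reticulum. ATP2A1-AS1 had 3.13, 2.19 and 2.86 CPM in the controls and 1.63, 1.69 and 1.38 CPM after knockdown (log2 fold change -0.80, SE 0.18, adjusted p = 0.000175). ATP2A1 had 2.06, 1.8 and 1.73 CPM in the controls and 2.49, 2.82 and 2.82 CPM after knockdown (log2 fold change 0.54, SE 0.16, adjusted p = 0.00557), so that the log2 ratio turned from 0.60, 0.28 and 0.73 in the controls to -0.61, -0.74 and -1.03 after knockdown. ZNF337-AS1 had 7.9, 8.5 and 8.04 CPM in the controls and 7.2, 7.2 and 6.14 CPM after knockdown (log2 fold change -0.25, SE 0.09, adjusted p = 0.0196), while the zinc-finger gene ZNF337 had a log2 fold change of 0.22, SE 0.05, adjusted p = 6.77e-05. The call of ZNF337-AS1 was lost without control 2 (adjusted p = 0.081) or knockdown 3 (0.148), and with total counts (0.111). The remaining pair, NAPA-AS1 and NAPA, was named after its values were seen and had log2 fold changes of -0.36 (adjusted p = 0.0417) and 0.10 (adjusted p = 0.00741). Its call was lost in 9 of the 17 alternative fits, among them those without control 1, control 2, control 3, knockdown 1 or knockdown 2. Within-library ratios separated the groups in the 6 opposite pairs plotted, which the choice of these pairs favours, so no test is given. Among these 6, the share of antisense exonic bases under partner exons was highest in ZNF337-AS1 (53.2%) and ATP2A1-AS1 (42.2%). Reads of such shared bases cannot be assigned to 1 gene of the pair from these data alone. Over all 177 pairs the ratios separated the groups in 66, 31 upward and 35 downward. For single genes the groups did not overlap in 51.4% of all tested, and ratios of other gene pairs were not examined.

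**Figure D3:**
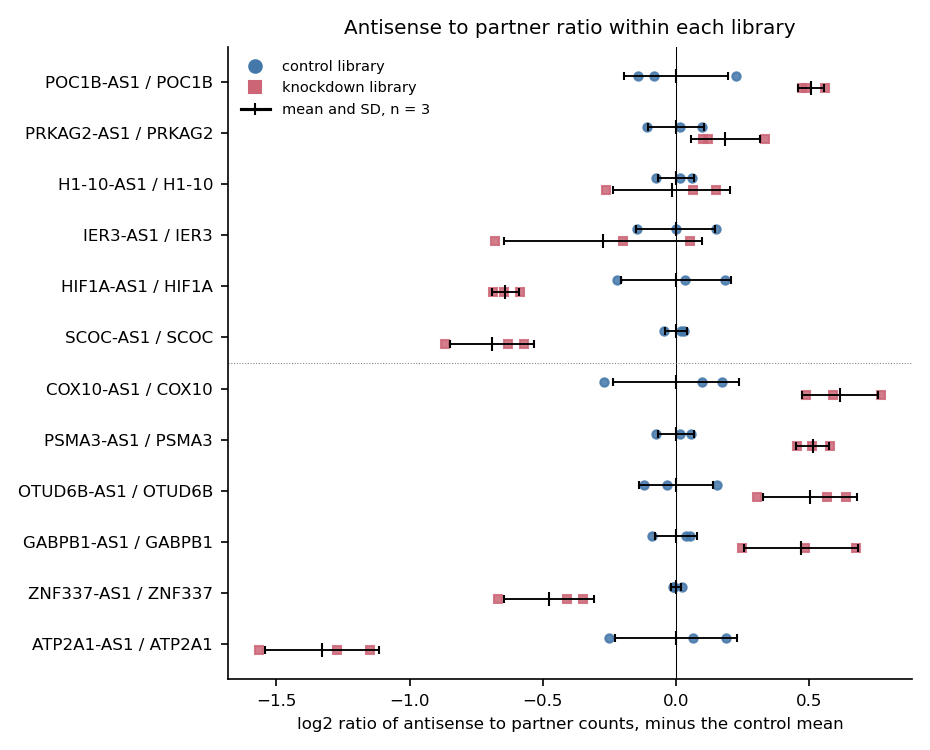
Log2 ratio of antisense to partner counts in each library, less the mean of the 3 controls, with group means and SDs (n = 3). The 6 opposite-direction pairs are below the dotted line and the 6 same-direction pairs above it, and knockdown and control libraries overlap only in IER3-AS1 and H1-10-AS1.

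The balance of calls differed between arrangements of the pair, a difference that was not tested. Of 20 head-to-head pairs whose bodies do not overlap, 5 antisense lncRNAs rose (SOX21-AS1, SUCLG2-AS1, COX10-AS1, OTUD6B-AS1 and BCAN-AS1) and 0 fell, with a median log2 fold change of 0.11 over the class. Of 88 head-to-head pairs with overlapping bodies, 11 rose and 4 fell (HIF1A-AS1, PRR34-AS1, H1-10-AS1 and FOXD3-AS1), at a median of 0.02. Of 44 tail-to-tail pairs, 4 rose (GAS6-AS1, PSMA3-AS1, FGD5-AS1 and ZFPM2-AS1) and 10 fell, at a median of -0.03. Of 29 antisense lncRNAs inside the partner, 3 rose (KIAA2012-AS1, NINJ2-AS1 and DLGAP1-AS2) and 6 fell, at a median of -0.03. Where the partner lies inside the antisense gene, NUTM2A-AS1 and CEACAM16-AS1 rose and ZFHX2-AS1 fell, of 22. BCAN-AS1, FOXD3-AS1, ZFPM2-AS1, DLGAP1-AS2 and the last 3 were named after their values were seen. The partners had 5 higher and 8 lower of 19 tested in the first class and 13 higher and 12 lower of 40 in the tail-to-tail class. Over all genes tested the shares were 22.2% higher and 22% lower, so that 25% higher in the class of 20 is near the background. The balance turned with the scaling. Total counts and log2(FPKM + 1) raised the share higher among all genes called, as given above. Tail-to-tail members had 6 higher and 5 lower with total counts and 6 and 3 with log2(FPKM + 1). They had 3 and 2 with the opposite-strand covariate described below. Members inside the partner had 4 and 4 with total counts. The head-to-head class apart had 2 higher and 0 lower with that covariate. Without control 2 the tail-to-tail antisense lncRNAs had 4 higher and 4 lower, and without knockdown 3 the head-to-head pairs apart had 3 higher and 0 lower.

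In head-to-head pairs that lie apart, the starts of the genes were 1 to 3929 bases from each other, with a median of 111. The stretch before the partner's start is shown for 4 of these pairs. In SOX21 and SUCLG2 both genes rose, in COX10 they moved in opposite directions, and in URB1 only the partner changed. SUCLG2 and URB1 were picked after their values were seen. Each line gives the 120 bases just before the partner's RefSeq start (GRCh38.p14), 5′ to 3′ on the partner's strand, with GGGCGG on either strand, which reads CCGCCC here, in capitals.
SOX21-AS1 and SOX21, chr13:94712546-94712665, minus strand: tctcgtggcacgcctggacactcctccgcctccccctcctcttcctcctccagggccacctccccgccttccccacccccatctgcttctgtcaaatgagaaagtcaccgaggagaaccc
SUCLG2-AS1 and SUCLG2, chr3:67654613-67654732, minus strand: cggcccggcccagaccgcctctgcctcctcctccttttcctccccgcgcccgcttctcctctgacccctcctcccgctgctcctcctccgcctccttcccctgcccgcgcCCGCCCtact
COX10-AS1 and COX10, chr17:14069384-14069503, plus strand: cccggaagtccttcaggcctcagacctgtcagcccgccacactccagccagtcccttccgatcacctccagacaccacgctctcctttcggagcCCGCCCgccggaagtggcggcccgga
URB1-AS1 and URB1, chr21:32393013-32393132, minus strand: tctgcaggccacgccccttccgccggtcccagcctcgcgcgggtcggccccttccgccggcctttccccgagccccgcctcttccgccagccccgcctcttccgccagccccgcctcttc

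The stretches are rich in G and C, at 64.2% for SOX21, 74.2% for SUCLG2, 68.3% for COX10 and 77.5% for URB1, against a median of 60% over 35116 RefSeq promoters. The antisense gene starts in GENCODE 29 at position 94712716 for SOX21-AS1, beyond the SOX21 stretch, so none of those bases belongs to it. It covers 36 of the 120 bases for SUCLG2, 112 for COX10 and 3 for URB1. GGGCGG was found once in SUCLG2 and once in COX10, both on the opposite strand, and in 34% of all promoter stretches of this length. CCAAT and TATAAA, searched on both strands, were in none of the 4, and in 20.4% and 5.63% of all. RefSeq promoters matched 156 of the 209 members and 169 partners by symbol.

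SOX21-AS1 had 1.29, 1.31 and 0.785 CPM in the controls and 1.5, 2.38 and 2.02 CPM after knockdown (log2 fold change 0.81, SE 0.21, adjusted p = 0.0016), and the transcription factor gene SOX21 had 1.45, 1.83 and 1.26 CPM in the controls and 2.56, 2.82 and 2.63 CPM after knockdown (log2 fold change 0.82, SE 0.18, adjusted p = 0.000123). The changes were of like size, and the within-library ratios overlapped between the groups. SUCLG2-AS1 had 3.26, 3.53 and 3.55 CPM in the controls and 4.48, 4.57 and 5.06 CPM after knockdown (log2 fold change 0.45, SE 0.12, adjusted p = 0.00168). SUCLG2, a subunit of a mitochondrial succinyl-CoA ligase, rose by less (log2 fold change 0.19, SE 0.03, adjusted p = 2.92e-07). URB1-AS1 had 4.38, 3.82 and 3.58 CPM in the controls and 4.83, 4.17 and 4.37 CPM after knockdown and did not pass (log2 fold change 0.18, SE 0.12, adjusted p = 0.233), while URB1, a ribosome biogenesis factor, fell (log2 fold change -0.24, SE 0.05, adjusted p = 0.000176). OTUD6B-AS1, described above, belongs to the same class of pairs.

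Members were also grouped by the share of their exonic bases in GENCODE that lies under exons of the opposite strand, of any gene. Of 34 members with no such base, 9 rose and 2 fell (SCOC-AS1 and IGFL2-AS1), at a median log2 fold change of 0.10. Of 109 with up to 25% of their exonic bases covered, 13 rose and 10 fell (median 0.01). Of 66 with more than 25% covered, 3 rose and 11 fell (median -0.12); the 3 were MAPKAPK5-AS1, PPP1R14B-AS1 and LBX2-AS1, named after their values were seen. All genes tested had 22.2% higher and 22% lower. The classes hold for the GENCODE exons alone, and the deposited values may rest on other exon models. In control 1, SCOC-AS1 had 72 raw reads and 0.22 FPKM, with 2410 exonic bases in GENCODE. GAS6-AS1 had 71 raw reads and 0.26 FPKM, with 7169 exonic bases. The FPKM of SCOC-AS1 thus used a longer length than its GENCODE exons. Whether members without a covered base had none in the models counted was not tested. With total counts the most covered class had 8 higher and 8 lower, and the uncovered class 10 and 2. With log2(FPKM + 1) the most covered class had 7 and 6, and the uncovered class 11 and 1. Both scalings raised the share higher among all genes called. In knockdown 3 the most covered members had a median log2 deviation from the group mean of -0.09, against 0.01 for members with no covered base. Knockdown 3 was the lowest knockdown library in 36 of the 66 and in 8 of the 34.

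Without knockdown 3 the most covered class had 3 higher and 11 lower with a median of -0.04, and the uncovered class 6 and 2 with a median of 0.09. With each library's opposite-strand percentage as a covariate, an alternative added after seeing the data, the most covered class had 5 higher and 4 lower (median -0.02) and the uncovered class 4 and 2 (median 0.10). The percentage was lower in every knockdown library than in every control, so it and the group cannot be fully told apart. The covariate kept 24 of the 48 calls, 15 higher and 9 lower, and no member changed sign among the 48. Among the members named, the calls lost with it were those of OTUD6B-AS1, FGD5-AS1, H1-10-AS1, ZNF337-AS1, SUCLG2-AS1, PRC1-AS1, MYL12-AS1, IER3-AS1, LIMD1-AS1, MRPS9-AS1, BCAN-AS1, FOXD3-AS1, ZFPM2-AS1, CEACAM16-AS1, PPP1R14B-AS1, LBX2-AS1, KDM4A-AS1 and NAPA-AS1. Of the partners, ATP2A1 missed the threshold with it (0.49, adjusted p = 0.061), and so did COX10 (-0.17, adjusted p = 0.0691). The calls of GAS6-AS1, KIAA2012-AS1, SOX21-AS1, POC1B-AS1, NINJ2-AS1, PRKAG2-AS1, COX10-AS1, PSMA3-AS1, GABPB1-AS1, HIF1A-AS1, SCOC-AS1, ATP2A1-AS1, PRR34-AS1 and PITPNA-AS1 held in all 17 alternative fits. The part of opposite-strand reads in single members was not tested further.

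**Figure D4:**
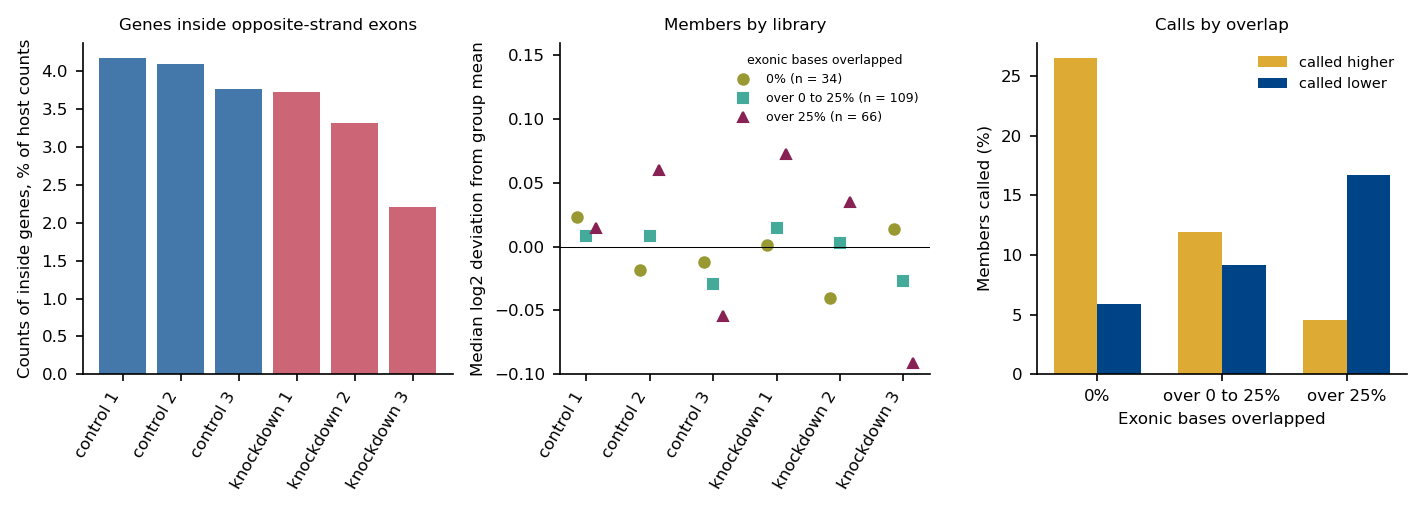
Left, summed counts of 86 genes inside opposite-strand exons as a percentage of their hosts' counts in each library. Middle, the median log2 deviation from the group mean in each library for members with 0%, up to 25% and over 25% of GENCODE exonic bases under an opposite-strand exon. Right, the percentage of each class called higher or lower. Knockdown 3 has the lowest bar at 2.21%, and the most covered class has 4.55% higher and 16.7% lower with TMM scaling.

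PRMT5-AS1, named after its values were seen, lies tail to tail with the arginine methyltransferase gene PRMT5. It had 5.38, 5.36 and 5.24 CPM in the controls and 4.48, 3.26 and 1.96 CPM after knockdown, and did not pass (log2 fold change -0.74, SE 0.26, adjusted p = 0.0618). PCBP1-AS1, also named after its values were seen, surrounds the gene of a poly(C)-binding protein and had 47.8, 49.9 and 40.5 CPM in the controls and 43.5, 36.6 and 25.8 CPM after knockdown (log2 fold change -0.39, SE 0.23, adjusted p = 0.249). In both, the controls were within a narrower range than the knockdown libraries. The summed level of all members was 1616, 1621 and 1560 CPM in the controls and 1614, 1567 and 1531 CPM after knockdown, so the groups overlapped.

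Genes of the nuclear exosome and its adaptors, which act on antisense and divergent transcripts, were read from a list of 26, all tested. Of these 16 fell, 1 rose and 9 did not pass, with a median log2 fold change of -0.16, against 0.00 for all genes. The 61.5% lower stands beside 22% of all genes tested and 26.3% of those with a mean count of 50 or more. The list had a median mean count of 1160, against 448 for all genes tested. The 4 with the smallest adjusted p were EXOSC5, a core subunit (-0.47), SRRT, which links the cap-binding complex to the exosome (-0.25), NCBP1, the large cap-binding subunit (-0.35), and MPHOSPH6, an exosome cofactor (-0.36). EXOSC5 had 30.4, 33.7 and 32.3 CPM in the control libraries and 22.3, 23.1 and 24.0 CPM in the knockdown libraries (adjusted p = 3.34e-11). RBM7, the RNA-binding subunit of the NEXT adaptor, was the gene that rose (0.19). With log2(FPKM + 1), where 77.3% of all genes called were higher, the list had 5 higher and 8 lower.

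Near the minimum count, SOX21-AS1 (mean 50.2), INTS6-AS1 and ILRUN-AS1 lay just inside. INTS6-AS1 had 1.16, 2.09 and 1.63 CPM in the controls and 1.47, 1.97 and 1.08 CPM after knockdown, and ILRUN-AS1 had 1.61, 1.47 and 1.79 CPM in the controls and 1.44, 1.28 and 1.72 CPM after knockdown. Neither passed the test, at log2 fold changes of -0.12 and -0.13. SOX21-AS1 reached 50 only through its knockdown libraries, so its inclusion depends on its rise. NDUFB2-AS1 (49.5), STARD7-AS1 (49.2) and FOXN3-AS1 (48.0) lay just outside.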

How the data were processed

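Poly(A) RNA of 3 control and 3 STAU1 knockdown A549 libraries was captured on beads and sequenced as 150 nt read pairs from a directional library, per the labels' protocols. The deposited values are raw read counts per gene and the authors' FPKM values, which are scaled by gene length and depth. HISAT2, DESeq2 and GRCh38 are named in the submitters' processing notes, with no role. No label or header gives the counter, annotation or strand setting. No blank or summary row entered the tests.

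Members and lists were chosen with earlier results of these data known. Counts were fitted over the whole table with edgeR 4.0.16 (R 4.3.3; TMM factors, filterByExpr with a minimum count of 10, robust quasi-likelihood test), and Benjamini-Hochberg adjustment covered all 17089 genes tested, with a call at an adjusted p under 0.05. Error is the SE of the log2 fold change or the SD over 3 libraries. In simulated counts with 200 changed genes, calls recovered 64% of changes of 0.25, 66% of 0.5, 90% of 1 and 96% of 2 on the log2 scale. The changed genes were drawn from all genes tested, which had a median mean count of 448 and a median SE of 0.07. The members had 120 and 0.13, and recovery among the members alone was not measured. In the real data 7560 genes were called. Positions and exon overlaps come from GENCODE 29 on GRCh38, and promoter sequences from RefSeq. The deposited counts may use other exon models, so the overlaps hold for GENCODE 29 alone. Totals ran from 30354219 to 35431441 counts. Replicates of a group were compared by chi-square over genes, and the statistic was 1.78 to 2.88 times its degrees of freedom, above counting noise.

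Named genes are STAU1, the 14 called members with the largest change, the 5 with the highest FPKM, 6 same-direction and 6 opposite-direction pairs with the smallest larger p of the pair, 3 members on each side of the count minimum, the partners of these, and 4 genes of the exosome list. Alternatives were RLE, upper-quartile and total-count scaling, other count filters, DESeq2 1.42.0, limma 3.58.1 (voom, and trend on log2 FPKM with pseudocounts of 1 and 0.1), a replicate block, other count minimums and leaving out each library.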

Additional observations from a re-analysis of the deposited data

How the results depend on the processing

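RLE and upper-quartile factors, voom and a filter of 1 CPM in 3 libraries moved no count of calls by over 1.5 times. Members called lower numbered 15 with DESeq2, 11 and 12 with log2(FPKM + 0.1) and log2(FPKM + 1), 14 with total counts, 10 with the opposite-strand covariate and 13 with a minimum count of 100, against 23. Members called higher numbered 39 with total counts and with either FPKM fit, against 25. Partners called higher numbered 74 with total counts, 85 with a minimum of 20 and 25 with a minimum of 100, against 48. Partners called lower numbered 22 and 23 with the FPKM fits and 32 with a minimum of 100, against 49. The 2 count minimums change the number of members. Opposite pairs numbered 4 with DESeq2 and 2 with the covariate, and same-direction pairs 11 with the covariate. The exosome list had 5 higher and 8 lower with either FPKM fit and 4 higher with total counts. Other lncRNA rows called lower numbered 56 and 55 with the FPKM fits and 68 with the covariate. The correlation over pairs was 0.17 with no filter, where more low genes entered. Otherwise the cause was not tested.

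Leaving out each library in turn gave 19 to 25 members higher and 15 to 28 lower, the 15 without control 2. It gave 41 to 45 partners higher and 44 to 49 lower, 13 to 22 same-direction pairs and 4 to 7 opposite pairs, the 4 without control 2. Correlations ran from 0.202 to 0.304, STAU1 from -2.994 to -2.931, the exosome list from 14 to 16 lower with 1 higher, and other lncRNAs from 118 to 125 higher and 90 to 144 lower. Of the 48 called members, 14 of 25 higher and 7 of 23 lower passed in all 17 alternative fits, and none changed sign in any. Changes of sign were limited to values that did not pass: NINJ2 ran from -0.159 (without control 3) to 0.419. AGAP2-AS1 was -0.031 with the covariate and ran from -0.047 (without control 1) to 0.056 over the libraries left out, at -0.007 without knockdown 1 and -0.013 without knockdown 3. INTS6-AS1 was 0.182 with the covariate and ran from -0.361 to 0.097 (without control 2), at 0.082 without knockdown 3. INTS6 was 0.057 and 0.026 with the FPKM fits and 0.039 with total counts.

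Same-numbered libraries deviated with correlations of 0.0677, 0.0368 and 0.146, not all above 0.1, and not every library correlated best with its own number, so the numbers were not taken as pairs. With the replicate block 25 members were higher and 31 lower, 23 pairs had the same and 9 the opposite direction, and STAU1 was at -2.97.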
